A study of Homo sapiens with 44 samples.

Results

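The data are the 6 input libraries of NGP cells taken after 6 days of treatment, 3 with the METTL3 inhibitor STM2457 at 8 µM and 3 with DMSO as the control. They were chosen by cell line, day and library type, and make up 6 of the 44 libraries and 2 of the 16 groups of a study of METTL3 inhibition in neuroblastoma. NGP is an established neuroblastoma cell line, labelled wild-type in genotype and MYCN-amplified. Both groups share that line and the 6 days, so they differ in the labels by the inhibitor alone. An input library is RNA-seq of the fragmented poly(A) RNA before the pulldown with an antibody against N6-methyladenosine (m6A). The study also has the pulled-down (RIP) libraries of the same cells and Kelly cells, another MYCN-amplified line, treated in the same way. The labels do not say that the replicates were separate cultures, so p-values here measure the spread between these libraries, which may be technical. In a bulk sample of a line, fewer cells with an mRNA and less of that mRNA per cell cannot be told apart.

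METTL3 is the catalytic subunit of the nuclear complex that writes m6A on mRNA while it is transcribed, with METTL14 as its partner and WTAP as an adaptor. The mark lies mostly in long internal exons and near stop codons, in a sequence context such as GGACT, and proteins of the YTH family that read it shorten the life of many marked mRNAs. STM2457 occupies the cofactor pocket of METTL3 and blocks its catalytic activity. Neuroblastoma arises from the sympathetic branch of the neural crest. Its adrenergic state is held by transcription factors such as HAND2 and GATA3 with catecholamine enzymes, and a mesenchymal state with vimentin, fibronectin and AP-1 factors is also known. BMP, Notch, retinoic acid and receptor tyrosine kinase signals steer neural crest cells between these fates.

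The 6 libraries held 5.49 to 11.6 M (mega, 1e6) fragments assigned to protein-coding genes, and 12781 to 14222 genes had at least 1 fragment. Replicate 2 of each group was the shallowest, with 5.59 M in DMSO and 5.49 M in STM2457. DMSO replicate 2 correlated with the other DMSO libraries at Pearson's r of 0.94 and 0.939 over log2 CPM of all genes tested, against 0.975 between DMSO replicates 1 and 3. STM2457 replicate 2 gave 0.942 and 0.945, against 0.968 between STM2457 replicates 1 and 3. With STM2457 replicates 1 and 3, DMSO replicate 1 correlated at 0.953 and 0.965 and DMSO replicate 3 at 0.949 and 0.958. These values lie above those of both with DMSO replicate 2, so over all genes the libraries did not group by treatment alone. STM2457 replicate 2 correlated with the DMSO libraries at 0.902 to 0.932, under its values within its group. CPM are counts per M assigned fragments with library sizes scaled by TMM, and every change below is log2 of STM2457 over DMSO with its standard error (SE), n = 3 libraries a group. In the adjusted tests a gene is called at a Benjamini-Hochberg adjusted p under 0.05 from edgeR's quasi-likelihood fit over all genes tested. For genes described with their NGP change and its adjusted p, calls lost when 1 library was left out are given.

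The markers chosen did not go against the label of the cells. All 13 adrenergic markers passed the filter on low counts, with summed levels of 13100 to 15200 CPM in DMSO and 13600 to 17500 CPM in STM2457. MYCN, which is amplified, CHGA and HAND2 had the highest means, at 6170, 2990 and 2790 CPM in DMSO. The catecholamine enzyme TH, outside the 13, had 0.339, 1.25 and 0.969 CPM in NGP DMSO in the fit of both lines. In Kelly DMSO it had 1030 to 1080 CPM. SLC18A1, SLC18A2 and PNMT, of catecholamine transport and synthesis, did not pass the filter. Of 10 fibroblast markers, 6 passed the filter and 2 (FAP and POSTN) had no fragment in any library. Their sum was 148 to 188 CPM in DMSO and 178 to 222 CPM in STM2457, and 1 of them, COL3A1, was called higher. Schwann cell lineage markers summed to 25 to 28 CPM in DMSO and 27.7 to 35 CPM in STM2457, with 1 of 8 passing the filter and 2 at 0, CDH19 among them. Of 7 endothelial markers 2 passed the filter and PECAM1 was at 0, with sums of 37.1 to 45.5 CPM and 22.2 to 41.4 CPM. Immune markers (1 of 7 passed, PTPRC, CD3E and AIF1 at 0) and epithelial markers (1 of 7 passed, KRT18, CDH1, KRT5 and KRT14 at 0) summed to at most 8.61 CPM and 4.74 CPM in any library.

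Of 19923 genes in the files, 12289 passed the filter, and 520 of them (4.23%) were called. They split into 254 rises (2.07% of the genes tested) and 266 falls (2.16%). A change of at least 2-fold was called for 114 rises (0.928%) and 90 falls (0.732%). The median log2 change of all genes tested was 0.01, and 50.8% of them were higher in STM2457. The number of calls rested on STM2457 replicate 1 more than on any other library: without it 128 genes were called, and without DMSO replicate 3 there were 229. DMSO replicate 1 left out gave 339 calls, and the other leave-outs gave 374 to 459. In all 6 leave-outs 111 genes kept their call, 64 rises and 47 falls. METTL3, the drug's target, had 98.3, 83.1 and 85 CPM in DMSO and 95.3, 75.4 and 117 CPM in STM2457, so its mRNA levels overlapped between the groups (log2 change 0.11 ± 0.175, edgeR adjusted p = 0.802). MYCN stood at 6170 ± 703 CPM (SD) in DMSO and 4790 ± 690 CPM in STM2457, a difference of -0.36 ± 0.158 (SE) that did not pass the test (edgeR adjusted p = 0.219).

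The 12 largest called rises and the 12 largest called falls were taken among called genes that averaged 2 log2 CPM or more and had separate groups. That the groups of these genes do not overlap is therefore set by the rule. Of all genes tested, 23.3% had groups that did not overlap. The rises were led by secreted proteins, transcription factors and receptors.

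ADAMTSL1 (chr9:17906563-18910950), a secreted matrix glycoprotein related to the ADAMTS proteases, had 2.42, 0.568 and 4.2 CPM in DMSO and 39.8, 43.2 and 45.8 CPM in STM2457. It was 16.6-fold higher (log2 change 4.05 ± 0.365, edgeR adjusted p = 1.05e-07), and all 3 treated libraries were far above the controls. Without DMSO replicate 3 the log2 change was 4.65. IGFBP3 (chr7:45912245-45921874), which binds insulin-like growth factors in the extracellular space, went from 17.5, 24 and 24 CPM to 184, 155 and 155 CPM. Its rise of 2.92 ± 0.184 had the smallest SE of the 12 rises (edgeR adjusted p = 3.79e-10). The groups of both genes were far apart.

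A pair of peptide hormone genes was near 0 in DMSO. CRH (chr8:66176376-66178464), the corticotropin-releasing hormone, had 0, 0.379 and 1.23 CPM in DMSO and 10, 8.43 and 6.93 CPM in STM2457. The log2 change was 3.94 ± 0.787 (edgeR adjusted p = 0.00413), and the call was lost without STM2457 replicate 1 (3.79, adjusted p = 0.0906). The size of the change rested on 0, 2 and 12 fragments in DMSO: it was 3.27 without DMSO replicate 1 and 5.85 without DMSO replicate 3. ADM (chr11:10305073-10307397), which encodes the vasodilator adrenomedullin, had 0.538, 1.7 and 1.13 CPM against 13, 12.4 and 12.9 CPM. The 3 treated values of ADM lay close together, 11.9-fold above the controls (3.58 ± 0.519, edgeR adjusted p = 0.000139).

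Among transcription factors, FOXC1 (chr6:1609915-1613897), a forkhead factor of the neural crest and mesoderm, rose from 2.69, 2.65 and 4.1 CPM to 37.4, 59 and 27.3 CPM. The treated libraries differed among themselves by more than the controls did, yet the lowest lay well above them (3.68 ± 0.33, edgeR adjusted p = 1.05e-07). MSX2 (chr5:174724582-174730896), a homeobox factor known as a BMP target, had 1.44, 1.14 and 0.923 CPM against 12, 12.2 and 9.34 CPM, a 9.42-fold rise (edgeR adjusted p = 0.000398). TCF7L1 (chr2:85133392-85310387), a TCF/LEF factor through which Wnt signals act on genes, had 4.85, 1.32 and 3.79 CPM against 23.8, 18.8 and 17.1 CPM (2.52 ± 0.391, edgeR adjusted p = 0.000283).

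The receptors among the 12 were CHRM1 and PLXNA4, and TRIL is a protein that binds a receptor. CHRM1 (chr11:62908679-62921807), a muscarinic acetylcholine receptor, had 2.42, 0 and 1.95 CPM in DMSO and 14, 19.2 and 12.5 CPM in STM2457 (3.24 ± 0.556, edgeR adjusted p = 0.000869). TRIL (chr7:28953358-28958330), a membrane protein that binds Toll-like receptor 4, had 9.69, 9.27 and 16.8 CPM against 88.1, 83.3 and 66.9 CPM, with the lowest treated library far above the highest control (2.72 ± 0.236, edgeR adjusted p = 7.55e-08). PLXNA4 (chr7:132123332-132648688), a semaphorin receptor, had 1.35, 0 and 3.28 CPM against 10.5, 12.7 and 7.67 CPM (2.63 ± 0.65, edgeR adjusted p = 0.0211). Its call was lost without DMSO replicate 1 (adjusted p = 0.0529), STM2457 replicate 1 (0.162) or STM2457 replicate 2 (0.0561), and the change was 3.66 without DMSO replicate 3. KRT17 (chr17:41619442-41624842), an intermediate filament protein of epithelia, had 1.53, 0.379 and 2.67 CPM against 14.1, 8.43 and 10.4 CPM (2.77 ± 0.55, edgeR adjusted p = 0.00388). The KRT17 call was lost without STM2457 replicate 1 (2.56, adjusted p = 0.0953), and the change was 3.37 without DMSO replicate 3. Of the other epithelial keratins looked at, KRT5, KRT14 and KRT18 had no fragment in any library, and KRT8 and KRT19 had 7 and 10 over all 6.

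**Figure D1:**
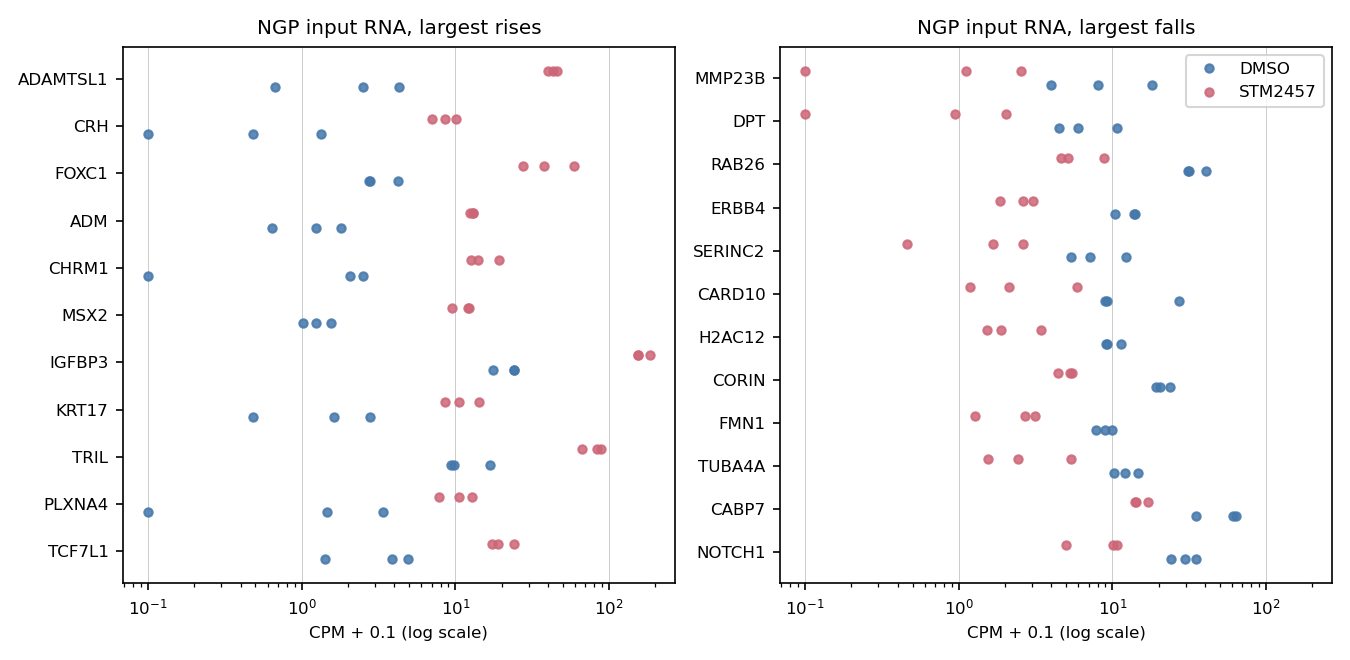
CPM of 11 of the 12 largest called rises and of the 12 largest called falls in each of the 3 DMSO and 3 STM2457 libraries on a log axis, with 0.1 CPM added so that values of 0 can be drawn. Genes were taken only if their groups did not overlap, and among those drawn the rises reach higher folds (ADAMTSL1, 16.6-fold) than the falls (MMP23B, 7.73-fold).

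Among the genes taken by that rule the largest falls were smaller than the largest rises. Without the limits on level and overlap, called falls reached -5.71 (SMIM1) and -5.24 (ANXA2), and called rises 6.77 (RHBG) and 4.97 (NT5C1A). Of the 6 leave-outs, SMIM1 and NT5C1A kept their call in 0, ANXA2 in 1 and RHBG in 6. RAB26 (chr16:2140803-2154165), a small GTPase of secretory vesicles, had 30.9, 40.3 and 31.2 CPM in DMSO and 8.68, 5.02 and 4.53 CPM in STM2457. The treated libraries lay far under the controls (-2.46 ± 0.299, edgeR adjusted p = 1.37e-05). ERBB4 (chr2:211375717-212538841), a receptor tyrosine kinase for neuregulins, had 13.7, 14 and 10.3 CPM against 2.95, 2.51 and 1.76 CPM (-2.39 ± 0.444, edgeR adjusted p = 0.00203). CORIN (chr4:47593999-47838106), the membrane protease that activates atrial natriuretic peptide, had 20.4, 23.7 and 19.1 CPM against 5.39, 4.31 and 5.18 CPM, with little spread in either group (-2.07 ± 0.32, edgeR adjusted p = 0.000283). NOTCH1 (chr9:136494433-136546048), a receptor that is cleaved and acts in the nucleus, had 24.1, 35 and 29.6 CPM against 10.6, 10 and 4.9 CPM (-1.80 ± 0.307, edgeR adjusted p = 0.000794). CABP7 (chr22:29720003-29731833), a calcium-binding protein of the calmodulin family, had 34.8, 63.8 and 61.1 CPM against 17, 14 and 14.1 CPM (3.52-fold lower, edgeR adjusted p = 4.83e-05). CABP7 shares 399 exonic bases with ZMAT5, on which the counting assigned no fragment.

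The other falls of the 12 lost their call in at least 2 leave-outs. MMP23B (chr1:1632163-1635263), a membrane metalloproteinase, had 3.86, 18 and 8 CPM in DMSO and 2.44, 0 and 1.02 CPM in STM2457 (-2.95 ± 0.731, edgeR adjusted p = 0.0212). DMSO replicate 2 was its highest library, and without it the change was -2.24 (adjusted p = 0.13). The call was also lost without STM2457 replicate 1 (-3.99, 0.0508) or replicate 3 (0.0822), and DESeq2 gave an adjusted p of 0.139. CARD10 (chr22:37490362-37519542), a scaffold of NF-kappaB signalling, had 9.15, 26.9 and 8.82 CPM against 5.81, 1.08 and 2.03 CPM (-2.24 ± 0.53, edgeR adjusted p = 0.0158). Here too DMSO replicate 2 was highest, with -1.54 (adjusted p = 0.13) when it was left out 0.0788 without STM2457 replicate 3, and a change of -3.17 without STM2457 replicate 1.

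DPT (chr1:168695468-168729206), the matrix protein dermatopontin, had 4.4, 10.6 and 5.84 CPM in DMSO and 0.842, 0 and 1.94 CPM in STM2457 (-2.77 ± 0.777, edgeR adjusted p = 0.0415). It kept its call in the leave-out of STM2457 replicate 3 alone, with -3.75 (adjusted p of 0.0369 to 0.22 over the 6). SERINC2 (chr1:31409565-31434680), a membrane protein of the serine incorporator family, had 7.09, 5.3 and 12.1 CPM against 2.53, 0.359 and 1.57 CPM (-2.38 ± 0.625, edgeR adjusted p = 0.0291). Without DMSO replicate 2 it kept its call, and in the other leave-outs it did not (0.0113 to 0.262 over the 6). FMN1 (chr15:32765544-33194714), a formin that builds actin filaments, had 7.72, 9.84 and 8.82 CPM against 1.18, 3.05 and 2.59 CPM (-1.97 ± 0.538, edgeR adjusted p = 0.0364). Its call held without STM2457 replicate 2 and was lost in the other 5 leave-outs (0.0274 to 0.176 over the 6).

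H2AC12 (chr6:27147129-27147515), 1 of many near-identical H2A histone genes whose fragments cannot be told apart with certainty, had 9.06, 11.2 and 8.92 CPM against 1.43, 1.79 and 3.33 CPM (-2.13 ± 0.514, edgeR adjusted p = 0.0179). The call was lost without DMSO replicate 1 (0.0526), DMSO replicate 3 (0.064) or STM2457 replicate 1 (0.113). TUBA4A (chr2:219249710-219278170), an alpha tubulin that shares 740 exonic bases with STK16 and TUBA4B, had 10.1, 14.6 and 12 CPM against 5.31, 1.44 and 2.31 CPM (-1.96 ± 0.472, edgeR adjusted p = 0.0179). Its call was lost without DMSO replicate 3 (0.0625) or STM2457 replicate 3 (0.07), and the change was -2.65 without STM2457 replicate 1.

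Lists of genes of pathways and cell functions were then read for how many members were called, beside 2.07% called up and 2.16% called down over all genes tested. Counts of members with an unadjusted p under 0.05 are to be read beside 2154 of the 12289 genes tested. In the BMP and TGF-beta list, 5 of 30 tested members rose and 0 fell. DESeq2 called 6 up and 0 down, limma with quality weights 6 up and 2 down, and the fit of both lines 6 up and 1 down. Without STM2457 replicate 2, edgeR called 5 up and 1 down. Of the tested members, 11 had an unadjusted p under 0.05. The median log2 change of the 30 was 0.17, against 0.01 over all genes. The 5 rises were SMAD6 and BAMBI, which inhibit the pathway and are induced by it, the effector SMAD9, and ID2 and ID3, which are its direct transcriptional targets.

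BMP-responsive genes are known to hold SMAD-binding elements, among them the GC-rich GGCGCC and the palindrome GTCTAGAC. RefSeq promoter windows, 250 bases before to 50 after the start of transcription, were found for all 5 called genes. They were searched for both motifs, each of which reads the same on both strands. Of 22199 protein-coding promoters of the same length, 24.3% held GGCGCC and 0.216% held GTCTAGAC. GGCGCC was in 1 of the 5 called genes and in 9 of 28 tested list members with a promoter, and GTCTAGAC was in 1 of the 5. The windows of SMAD6 (chr15:66701986-66702285, plus strand), ID3 (chr1:23559452-23559751, minus strand) and BAMBI (chr10:28677271-28677570, plus strand), build GRCh38.p14, show the window with the palindrome, a window with neither and the window with 3 GGCGCC. They are written 5′ to 3′, with the motifs in capitals.
SMAD6: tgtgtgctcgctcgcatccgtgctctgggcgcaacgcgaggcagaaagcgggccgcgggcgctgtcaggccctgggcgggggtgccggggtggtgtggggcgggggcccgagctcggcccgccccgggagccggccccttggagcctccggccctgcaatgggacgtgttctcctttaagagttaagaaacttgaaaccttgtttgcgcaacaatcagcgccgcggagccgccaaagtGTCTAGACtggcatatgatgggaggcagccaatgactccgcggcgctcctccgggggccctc
ID3: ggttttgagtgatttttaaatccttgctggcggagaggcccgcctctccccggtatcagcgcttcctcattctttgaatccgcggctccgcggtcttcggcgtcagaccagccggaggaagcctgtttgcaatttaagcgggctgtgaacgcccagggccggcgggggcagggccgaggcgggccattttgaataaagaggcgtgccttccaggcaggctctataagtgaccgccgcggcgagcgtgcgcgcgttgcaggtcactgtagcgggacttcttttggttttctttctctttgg
BAMBI: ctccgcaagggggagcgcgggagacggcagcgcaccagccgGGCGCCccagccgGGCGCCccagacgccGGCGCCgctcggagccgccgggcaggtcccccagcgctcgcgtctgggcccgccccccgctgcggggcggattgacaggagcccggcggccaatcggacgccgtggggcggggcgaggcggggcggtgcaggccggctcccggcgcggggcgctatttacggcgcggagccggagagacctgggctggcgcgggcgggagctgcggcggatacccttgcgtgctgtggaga
SMAD9 and ID2 had neither motif in their windows. A match describes these letters and says nothing of binding.

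SMAD6 (chr15:66702236-66782849) had 47.1, 54.1 and 45.9 CPM in DMSO and 132, 121 and 114 CPM in STM2457, narrow groups far apart (1.32 ± 0.165, edgeR adjusted p = 2.04e-05). BAMBI (chr10:28677510-28682932), a receptor that lacks the kinase, had 6.28, 7.76 and 4.31 CPM against 19.3, 14.4 and 14.6 CPM (1.41 ± 0.351, edgeR adjusted p = 0.0214). SMAD9, the receptor-activated SMAD8, had 37.8, 20.1 and 30.2 CPM against 62.7, 66.2 and 53 CPM (1.03 ± 0.217, edgeR adjusted p = 0.00627). None of the 3 genes had overlapping groups. ID3 (chr1:23557926-23559501), an inhibitor of bHLH factors, had 102, 67.4 and 115 CPM against 211, 170 and 151 CPM (0.89 ± 0.183, edgeR adjusted p = 0.00494). ID2, of the same family, had 126, 145 and 137 CPM against 234, 205 and 199 CPM (0.64 ± 0.149, edgeR adjusted p = 0.0131). The groups did not overlap for either. Without STM2457 replicate 1 the calls other than that of SMAD6 were lost while the changes stayed near their size, at 0.75 (adjusted p = 0.103) for ID3, 1.00 (0.0775) for SMAD9, 0.57 (0.114) for ID2 and 1.25 (0.178) for BAMBI. Without DMSO replicate 1 or replicate 3, 3 members were called, as ID2 (0.0733 and 0.0824) and BAMBI (0.0588 and 0.129) were lost.

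In the Notch list 0 of 20 tested members were called up and 5 down. Of all 20, 9 were higher and 11 lower in STM2457, with a median of -0.16, and 10 had an unadjusted p under 0.05. DESeq2 called 1 up and 6 down, limma with quality weights 2 up and 6 down, and the fit of both lines 4 up and 6 down. The falls held a receptor (NOTCH1, above), ligands (DLK1, DLL3), a modifying enzyme (LFNG) and a nuclear factor (HES6). HES6, a bHLH protein that opposes HES1, had 348, 500 and 440 CPM in DMSO and 232, 218 and 126 CPM in STM2457 (-1.16 ± 0.191, edgeR adjusted p = 0.000534). DLK1, a non-canonical ligand of chromaffin and neuroblastoma cells, had 519, 514 and 634 CPM against 322, 329 and 266 CPM (-0.86 ± 0.152, edgeR adjusted p = 0.00116). Both were abundant, and both had all treated libraries under the lowest control. DLL3, a ligand that inhibits Notch within the cell, had 141, 137 and 160 CPM against 106, 82.2 and 74.6 CPM (-0.74 ± 0.165, edgeR adjusted p = 0.0102), and lost its call without DMSO replicate 3 (-0.67, adjusted p = 0.0823). LFNG, a glycosyltransferase that alters the receptor's choice of ligand, had 28, 30.7 and 30.2 CPM against 17.9, 17.6 and 12.6 CPM (-0.89 ± 0.249, edgeR adjusted p = 0.0415). Its groups did not overlap, but the call was lost in each of the 6 leave-outs (0.0506 to 0.152). Without DMSO replicate 3, 3 members of the list were called.

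**Figure D2:**
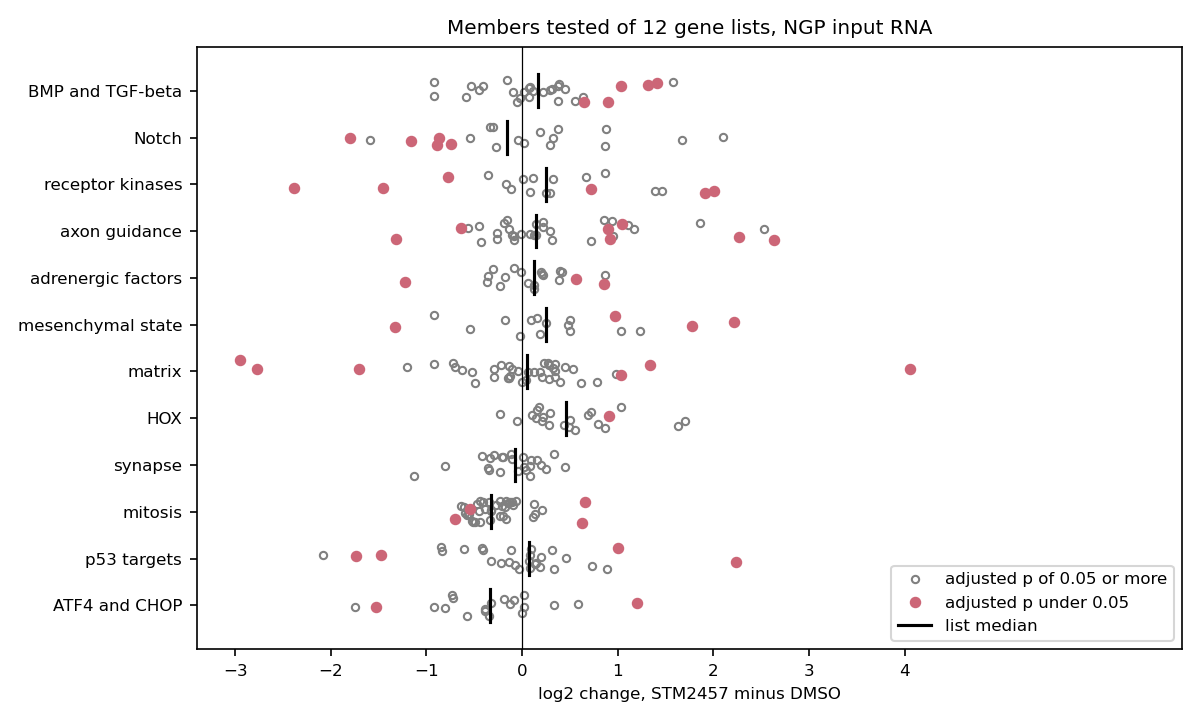
Log2 change of each tested member of 12 gene lists, with called members filled and a black line at the median of each list; vertical position within a list carries no value. The BMP list has 5 called rises and no called fall, the Notch list 5 called falls and no called rise, and in the mitosis list 33 of 39 members lie left of 0.

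In the Wnt list 2 of 30 tested members rose and 1 fell, with a median of 0.3. SFRP1, a secreted Wnt antagonist, had 40.5, 39.7 and 50.3 CPM in DMSO and 126, 127 and 134 CPM in STM2457, close to each other within each group (edgeR adjusted p = 2.06e-06). TCF7L1 was the other rise. NKD2, an inhibitor of Dishevelled, had 35.4, 46 and 34.1 CPM against 22.7, 20.3 and 14.2 CPM (-1.01 ± 0.241, edgeR adjusted p = 0.0166). Its call was lost without STM2457 replicate 1 (adjusted p = 0.0511) or replicate 3 (0.0709).

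Of 13 tested members of the retinoic acid list 2 rose and 0 fell. RXRA, the partner receptor of the retinoic acid receptors, had 43.3, 29.5 and 33.9 CPM in DMSO and 61.7, 70.5 and 47.2 CPM in STM2457 (0.74 ± 0.206, edgeR adjusted p = 0.0407). It kept its call without DMSO replicate 1 or STM2457 replicate 3 and lost it in the other leave-outs (0.0265 to 0.197 over the 6). CRABP2, which carries retinoic acid to the nucleus, had 30.6, 40.9 and 32.1 CPM against 69.6, 40.6 and 77.1 CPM (0.87 ± 0.221, edgeR adjusted p = 0.0246). Its groups overlapped, since STM2457 replicate 2 lay at the level of DMSO replicate 2. The call held without either of those 2 libraries and was lost in the other 4 leave-outs (0.00194 to 0.193 over the 6).

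Receptor tyrosine kinases and neurotrophin receptors had 3 rises and 3 falls among 19 tested members, with a median of 0.25. RET, the signalling receptor of the GDNF family, had 69.2, 43.3 and 67 CPM in DMSO and 260, 234 and 229 CPM in STM2457 (2.00 ± 0.175, edgeR adjusted p = 7.55e-08). GFRA2, the co-receptor through which neurturin reaches RET, had 45.7, 44.5 and 51.2 CPM against 190, 165 and 177 CPM (1.91 ± 0.16, edgeR adjusted p = 5.73e-08). The receptor and its co-receptor thus rose by about the same amount, and in each the treated libraries lay far above the controls. ALK, a receptor that is often mutated in neuroblastoma, had 114, 95.2 and 87.7 CPM against 168, 176 and 147 CPM (0.72 ± 0.158, edgeR adjusted p = 0.00861), and lost its call without DMSO replicate 3 (0.0972) or STM2457 replicate 1 (0.0781).

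The falls of that list were ERBB4, NGFR and FGFR3. NGFR, the low-affinity neurotrophin receptor, had 242, 311 and 278 CPM in DMSO and 184, 169 and 134 CPM in STM2457 (-0.77 ± 0.158, edgeR adjusted p = 0.00494). FGFR3, a fibroblast growth factor receptor, had 15.3, 28.4 and 18.7 CPM against 7.33, 6.64 and 8.51 CPM (-1.45 ± 0.319, edgeR adjusted p = 0.00882), and lost its call without STM2457 replicate 1 (-1.43, adjusted p = 0.0803). Neither gene had overlapping groups.

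Axon guidance genes had 5 rises and 2 falls among 35 tested, with a median of 0.15. NRP1, the neuropilin that binds semaphorins and VEGF, had 9.15, 10.4 and 7.49 CPM in DMSO and 41.1, 46.3 and 42.1 CPM in STM2457 (2.27 ± 0.247, edgeR adjusted p = 2.25e-06). UNC5B, a netrin receptor, had 121, 127 and 162 CPM against 336, 249 and 263 CPM (1.05 ± 0.163, edgeR adjusted p = 0.000283). Both receptors had every treated library clear of the controls. SLIT3, a repulsive ligand of ROBO receptors, had 219, 133 and 192 CPM against 401, 285 and 343 CPM (0.92 ± 0.175, edgeR adjusted p = 0.00258), with no call without STM2457 replicate 1 (0.79, adjusted p = 0.0755). EFNB1, an ephrin ligand, had 29.2, 22.7 and 30.7 CPM against 51.6, 59.2 and 43.7 CPM (0.89 ± 0.208, edgeR adjusted p = 0.0137), with no call without STM2457 replicate 1 (0.0906) or replicate 2 (0.054). PLXNA4 was the other rise. PLXNA3, another plexin, changed in the opposite direction, from 66.1, 54.5 and 59.4 CPM to 27.4, 21.7 and 22.8 CPM (-1.32 ± 0.199, edgeR adjusted p = 0.000216). It shares 11 exonic bases with LAGE3. EPHB2, an ephrin receptor, had 70.8, 60.8 and 77.3 CPM against 44.6, 40.6 and 49 CPM (-0.64 ± 0.181, edgeR adjusted p = 0.0439), a call that held without DMSO replicate 2 and was lost in the other 5 leave-outs (0.0305 to 0.241 over the 6).

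Of the 20 tested adrenergic transcription factors, 2 rose and 1 fell, and the median was 0.13. TFAP2B, a factor of sympathetic neurons, had 77.4, 70.2 and 70.1 CPM in DMSO and 127, 152 and 118 CPM in STM2457 (0.86 ± 0.162, edgeR adjusted p = 0.00229). SIX3, a homeobox factor, had 75.1, 111 and 86.1 CPM against 50.5, 39.8 and 26.2 CPM (-1.22 ± 0.215, edgeR adjusted p = 0.00115). The groups were separate for both. HAND1, a bHLH factor of the sympathoadrenal lineage, had 442, 394 and 442 CPM against 680, 688 and 529 CPM (0.57 ± 0.151, edgeR adjusted p = 0.0314). Its call held without STM2457 replicate 3 and was lost in the other leave-outs (0.011 to 0.192 over the 6). HAND2, another core factor, was at 2790 ± 191 CPM (SD) in DMSO and 3680 ± 392 CPM in STM2457 and was not called.

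Among 9 tested genes of catecholamine synthesis and transport 2 rose and 0 fell, with a median of 0.36. SLC6A2, the noradrenaline transporter that takes up MIBG in the clinic, had 31, 36.9 and 40.2 CPM in DMSO and 85.7, 86.3 and 76.6 CPM in STM2457 (1.20 ± 0.181, edgeR adjusted p = 0.000208), with narrow groups far apart. MAOA, which degrades monoamines, had 6.91, 6.25 and 2.97 CPM against 11.6, 12 and 19.6 CPM (1.43 ± 0.396, edgeR adjusted p = 0.039). The MAOA call was lost without DMSO replicate 3 (0.199), STM2457 replicate 1 (0.113) or STM2457 replicate 3 (0.202).

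Granins and secretory granule genes had 1 rise and 2 falls among 12, none of which held in all leave-outs. CADPS, which primes dense-core vesicles for release, had 33.1, 50 and 46.4 CPM in DMSO and 69.3, 83.8 and 68.8 CPM in STM2457 (0.78 ± 0.192, edgeR adjusted p = 0.0203). SCG3, a granin, had 230, 267 and 282 CPM against 137, 207 and 162 CPM (-0.62 ± 0.163, edgeR adjusted p = 0.0283). VGF, a neuropeptide precursor, had 206, 301 and 296 CPM against 185, 206 and 123 CPM (-0.65 ± 0.183, edgeR adjusted p = 0.044). The groups were separate for CADPS and SCG3 and touched for VGF at 206 CPM. CADPS kept its call without DMSO replicate 2 or STM2457 replicate 3 (0.0124 to 0.136 over the 6). SCG3 and VGF kept theirs without DMSO replicate 1 or STM2457 replicate 2 (0.00705 to 0.231 and 0.0138 to 0.195).

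Genes of the neuron's cell body and synapse gave few calls. Among 26 tested genes of the neuronal cytoskeleton and neurite growth, 1 was called, the neurofilament light chain NEFL, at 58.7, 64.5 and 58.3 CPM in DMSO and 84.6, 117 and 83.5 CPM in STM2457 (0.65 ± 0.175, edgeR adjusted p = 0.0343). Its call held without DMSO replicate 2 or STM2457 replicate 3 and was lost otherwise (0.0324 to 0.169 over the 6). Of 24 tested synaptic genes, edgeR called 0 and DESeq2 called 0, with 2 at an unadjusted p under 0.05 and a median of -0.08. Among 29 voltage-gated channel genes 1 fell, CACNA1H, a T-type calcium channel that shares 121 exonic bases with TPSG1. It had 59.9, 69.8 and 69.5 CPM against 28.1, 29.6 and 19.9 CPM, so the groups were well separated (-1.36 ± 0.203, edgeR adjusted p = 0.000176). Of 4 tested neuropeptide genes, CRH was the called one.

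Genes of the mesenchymal neuroblastoma state had 3 rises and 1 fall among 17 tested of 31 in the list, with a median of 0.25. Of those that did not pass the filter, YAP1, WWTR1, NOTCH2, TWIST2, IFI16, MEOX1, MEOX2 and CCN2 had no fragment in any of the 6 libraries. CD44 and NOTCH3 had at most 6 in a library. VIM, the intermediate filament vimentin, had 39.6, 26.3 and 43.5 CPM in DMSO and 170, 173 and 172 CPM in STM2457, nearly equal among the treated libraries (2.22 ± 0.182, edgeR adjusted p = 5.36e-08). FOSL2, an AP-1 factor, had 22.5, 20.1 and 21.6 CPM against 79.7, 66.9 and 73.8 CPM (1.78 ± 0.192, edgeR adjusted p = 2.14e-06). FN1, fibronectin, had 30.7, 32.7 and 24.6 CPM against 54.2, 59.2 and 58.9 CPM (0.97 ± 0.196, edgeR adjusted p = 0.00437), and lost its call without DMSO replicate 3 (0.85, adjusted p = 0.0543). The groups of all 3 genes were separate. SIX4, a homeobox factor, had 11.4, 26.3 and 10.7 CPM against 6.99, 5.56 and 6.38 CPM (edgeR adjusted p = 0.0469). DMSO replicate 2 was its highest library, and the call held without DMSO replicate 1 or 3 but in no other leave-out (0.0423 to 0.31 over the 6). Fibroblasts also express vimentin and fibronectin. Of their markers FAP and POSTN were at 0, while PDGFRB (84.1 CPM in DMSO and 74.6 in STM2457), COL1A1 (42.4 and 41 CPM) and PDGFRA (29.5 and 35.3 CPM) were measured and not called, and COL3A1 was called higher. The part of such cells in the values of VIM and FN1 was not tested.

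Of 42 tested collagen and matrix genes 3 rose and 3 fell, with a median of 0.05. ADAMTS9, a matrix protease, had 33.9, 37.1 and 35.1 CPM in DMSO and 63.7, 68.9 and 84.2 CPM in STM2457 (1.03 ± 0.185, edgeR adjusted p = 0.00144). COL3A1, a fibrillar collagen, had 18.9, 9.46 and 20.3 CPM against 50.7, 28.2 and 45.9 CPM (1.34 ± 0.275, edgeR adjusted p = 0.00494), and lost its call without STM2457 replicate 1 (1.18, adjusted p = 0.104). LAMA5, a laminin chain of basement membranes, had 44.8, 29.3 and 41 CPM against 10.5, 12.4 and 12.6 CPM (-1.71 ± 0.25, edgeR adjusted p = 0.000153). It shares 244 exonic bases with ADRM1. The other called members, ADAMTSL1, DPT and MMP23B, are described above.

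In the HOX clusters 20 of 22 tested genes were higher in STM2457 and the median was 0.46, but 1 was called by edgeR and 2 by DESeq2, with 5 at an unadjusted p under 0.05. The called gene, HOXD10, which shares 452 exonic bases with HOXD11, had 21.2, 14.8 and 22.6 CPM in DMSO and 36.4, 37.9 and 36.5 CPM in STM2457 (0.91 ± 0.232, edgeR adjusted p = 0.0248). Its groups were separate, and it was called in none of the 6 leave-outs (0.0511 to 0.115).

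In the mitosis and kinetochore list 33 of 39 tested genes were lower in STM2457, with a median of -0.32, while 2 rises and 2 falls were called and 17 had an unadjusted p under 0.05. DESeq2 called 2 rises and 4 falls. The rises were the transcription factors that drive the late cell cycle, and the falls were components of the mitotic checkpoint and of sister chromatid cohesion. FOXM1 had 152, 130 and 132 CPM in DMSO and 217, 227 and 211 CPM in STM2457 (0.66 ± 0.147, edgeR adjusted p = 0.0102), with 781 exonic bases shared with ITFG2. MYBL2 had 596, 605 and 568 CPM against 1020, 877 and 830 CPM (0.62 ± 0.146, edgeR adjusted p = 0.0149). PTTG1, securin, which holds separase inactive, had 198, 199 and 202 CPM against 111, 112 and 145 CPM (-0.70 ± 0.154, edgeR adjusted p = 0.0089). All 3 had groups that did not overlap. MAD2L1, of the spindle checkpoint, had 169, 145 and 159 CPM against 108, 96.2 and 121 CPM (-0.54 ± 0.154, edgeR adjusted p = 0.0437). Without DMSO replicate 3 no member of the list was called by edgeR, and none without STM2457 replicate 1. FOXM1 then had adjusted p of 0.092 and 0.0681, MYBL2 0.126 and 0.135, and PTTG1 0.0543 and 0.103. MAD2L1 kept its call without DMSO replicate 2 or STM2457 replicate 3 (0.0348 to 0.18 over the 6).

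Of 38 tested DNA replication genes 2 rose and 0 fell, and the median was 0.04. FEN1, the flap endonuclease, had 84.9, 92 and 78.1 CPM in DMSO and 133, 126 and 129 CPM in STM2457 (0.61 ± 0.155, edgeR adjusted p = 0.0248). It shares 49 exonic bases with FADS2 and lost its call without DMSO replicate 1 (0.0831), DMSO replicate 3 (0.171) or STM2457 replicate 1 (0.127). MCM5, of the replicative helicase, had 193, 176 and 197 CPM against 290, 247 and 277 CPM (0.53 ± 0.145, edgeR adjusted p = 0.0385), and kept its call in the leave-out of STM2457 replicate 2 alone (0.0352 to 0.2 over the 6).

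The p53 target list had 2 rises and 2 falls among 29 tested and a median of 0.07, so its members did not move one way. CDKN1A, the cyclin-dependent kinase inhibitor p21 and the best known target, fell from 64.8, 69.8 and 77.6 CPM to 29.1, 14.2 and 19.6 CPM (edgeR adjusted p = 3.42e-05). RPS27L, another p53-induced gene, had 26.9, 42 and 24.7 CPM in DMSO and 11.2, 13.6 and 8.97 CPM in STM2457 (-1.47 ± 0.281, edgeR adjusted p = 0.00257). In both every treated library lay under every control. PLK2, a polo-like kinase, had 5.47, 4.92 and 11.2 CPM against 46, 29.4 and 27.6 CPM (2.24 ± 0.319, edgeR adjusted p = 0.000115). TP53I3, a quinone oxidoreductase that shares 80 exonic bases with FAM228B, had 76.7, 112 and 87.6 CPM against 205, 163 and 184 CPM (1.01 ± 0.166, edgeR adjusted p = 0.000534). The groups of PLK2 and TP53I3 were separate as well. MDM2, the ubiquitin ligase that p53 induces against itself, had a log2 change of 0.09 and did not pass the test (edgeR adjusted p = 0.841). Of 20 tested G1 cyclins and inhibitors, CDKN1A was the called one.

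Stress and metabolic lists leaned down with few calls. Of 20 tested ATF4 and CHOP stress genes 15 were lower, with a median of -0.33, and 1 rose and 1 fell. STC2, the secreted stanniocalcin 2, had 76.7, 104 and 87.3 CPM in DMSO and 25.2, 40.2 and 28.1 CPM in STM2457 (-1.53 ± 0.201, edgeR adjusted p = 3.94e-05). JDP2, a bZIP repressor of AP-1, had 11.6, 10.4 and 15.7 CPM against 29.7, 28.9 and 28.5 CPM (1.20 ± 0.26, edgeR adjusted p = 0.00807), and lost its call without STM2457 replicate 1 (1.18, adjusted p = 0.0702). The groups were separate for both. Of 19 genes of serine, one-carbon and amino acid synthesis 16 were lower, and 1 fell, the argininosuccinate synthase ASS1, from 714, 747 and 801 CPM to 555, 528 and 483 CPM (-0.53 ± 0.144, edgeR adjusted p = 0.036). It was called in none of the 6 leave-outs (0.0613 to 0.216).

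Among 30 tested genes of hypoxia and glycolysis ADM rose and LDHA fell, with a median of -0.27. LDHA, lactate dehydrogenase A, had 400, 351 and 415 CPM in DMSO and 241, 223 and 315 CPM in STM2457 (-0.58 ± 0.157, edgeR adjusted p = 0.0341), and kept its call without DMSO replicate 2 or STM2457 replicate 3 (0.00958 to 0.214 over the 6). Of 32 tested immediate early and short-lived mRNAs FOSL2 rose and ARC fell. ARC, a synaptic capsid-like protein induced by activity, had 52.5, 80.2 and 63.3 CPM against 37.1, 32.5 and 26.7 CPM (-1.02 ± 0.205, edgeR adjusted p = 0.00426), without overlap.

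In several lists edgeR called 0 members. Among 20 tested aminoacyl-tRNA synthetases, 16 were lower with a median of -0.23. Unadjusted, 9 had a p under 0.05 (2154 of 12289 over all genes tested), and none was called by DESeq2. Of 14 tested m6A writer and demethylase genes 2 were under an unadjusted p of 0.05, and DESeq2 called 1 rise. The count under an unadjusted p of 0.05 and the count called by DESeq2 were 2 and 0 for the m6A readers (11 tested), 2 and 0 for amino acid transporters (16 tested), 3 and 0 for cholesterol synthesis and uptake (25 tested), and 1 and 0 for interferon-induced genes (16 tested). For antigen presentation (6 tested) and for the mitochondrially encoded mRNAs (13 tested, median -0.04) both counts were 0.

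mRNAs of the cytosolic ribosome and of the respiratory chain were lower in STM2457. Of 82 tested ribosomal protein genes 81 were lower, with a median of -0.54, and 35 fell while 0 rose. DESeq2 called 46. RPL9 had 689, 759 and 764 CPM in DMSO and 358, 444 and 451 CPM in STM2457 (-0.82 ± 0.149, edgeR adjusted p = 0.00161). RPL35A had 553, 800 and 710 CPM against 308, 420 and 380 CPM (-0.90 ± 0.164, edgeR adjusted p = 0.00176), and lost its call without STM2457 replicate 1 (adjusted p = 0.0566). Both proteins belong to the large subunit, and both had separate groups. Ribosomal protein genes are known for many processed copies in the genome, so how fragments were assigned among copies is uncertain. The ribosomal protein mRNAs took 13.7%, 13.9% and 13.7% of the fragments of the DMSO libraries and 10.6%, 9.93% and 11.8% of the STM2457 libraries. The number of called falls depended on the libraries: it was 2 without STM2457 replicate 1, 10 without DMSO replicate 2, 16 without DMSO replicate 3, 22 without STM2457 replicate 2 and 15 without both replicates numbered 2.

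Of 78 tested nuclear genes of the respiratory chain, 70 were lower with a median of -0.35, and 14 fell while 0 rose (16 by DESeq2). NDUFA4, a small subunit linked to cytochrome c oxidase, had 181, 197 and 175 CPM in DMSO and 83.1, 101 and 115 CPM in STM2457 (-0.88 ± 0.158, edgeR adjusted p = 0.00138). ATP5PO, of the stalk of ATP synthase, had 81.5, 94.6 and 70.2 CPM against 28.5, 36.2 and 44.9 CPM (edgeR adjusted p = 0.000742). It shares exons with AP000311.1. Treated libraries lay under the controls for both. COX6C, a subunit of cytochrome c oxidase, had 202, 686 and 206 CPM against 103, 139 and 135 CPM (-1.53 ± 0.298, edgeR adjusted p = 0.00316). DMSO replicate 2 stood apart there, and without it the change was -0.70 (adjusted p = 0.0171). DESeq2 gave an adjusted p of 0.115 and the robust edgeR fit 0.286, and the edgeR call was lost without STM2457 replicate 1 (-1.41, adjusted p = 0.114). The share of respiratory chain mRNAs was 1.59%, 1.56% and 1.53% in DMSO and 1.28%, 1.16% and 1.44% in STM2457. Without STM2457 replicate 1, 2 of these genes were called, and without both replicates numbered 2, 10 were. The mitochondrially encoded share, which includes the rest of the chain, ran from 1.94% to 4.29% over the 6 libraries.

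**Figure D3:**
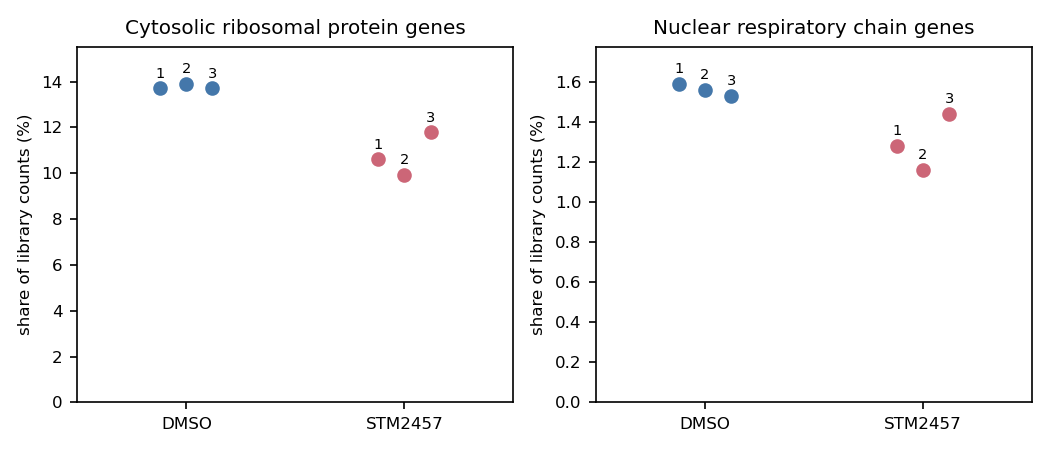
Percent of assigned fragments taken by ribosomal protein mRNAs and by nuclear respiratory chain mRNAs in each of the 3 DMSO and 3 STM2457 libraries, on axes from 0, with the replicate number above each point. The ribosomal protein share is 13.7% to 13.9% in DMSO and 9.93% to 11.8% in STM2457, so the groups do not overlap.

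To ask what the called genes share beyond the contrast, each gene was given its ratio of RIP over input in the DMSO libraries of Kelly cells at 6 days, which hold no NGP library. A RIP level combines the transcript's level and its m6A, and the ratio to the input removes the level as far as both are counted alike. Of 11676 genes with both values, the quintile with the lowest ratio had 13 called rises and 120 called falls, and 30.2% of its genes were higher in STM2457. From there the called rises were 31, 41 and 66 in the next quintiles and 90 in the quintile with the highest ratio, while the called falls were 52, 33, 28 and 18. The share of genes that were higher was 41.8%, 54% and 61% in the middle quintiles and 66.9% in the highest. The median log2 change went from -0.17 in the lowest quintile to 0.18 in the highest. The counts of calls depended on the libraries. Without STM2457 replicate 1 the lowest quintile had 4 rises and 10 falls and the highest 24 rises and 11 falls, nearly the same number of falls in both. Without DMSO replicate 3 these were 5 and 47 in the lowest and 41 and 11 in the highest. In the lowest quintile the falls were 75 without DMSO replicate 1 and 72 without DMSO replicate 2, and in the highest the rises were 53 without DMSO replicate 1 and 60 without STM2457 replicate 2.

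The quintiles also differ in level and length. Their median level in these libraries fell from 45.2 CPM in the lowest quintile to 38.4, 28.8, 22.3 and 17.6 CPM in the highest. Their median exonic length was 4697, 5283, 5621, 5987 and 5276 bases. Without the ribosomal protein and respiratory chain genes the share of higher genes still ran from 32.1% in the lowest quintile to 67% in the highest, with 81 and 18 called falls and 14 and 85 called rises. Over all other fits and leave-outs the share was 28% to 33% in the lowest quintile and 63.9% to 67.8% in the highest.

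**Figure D4:**
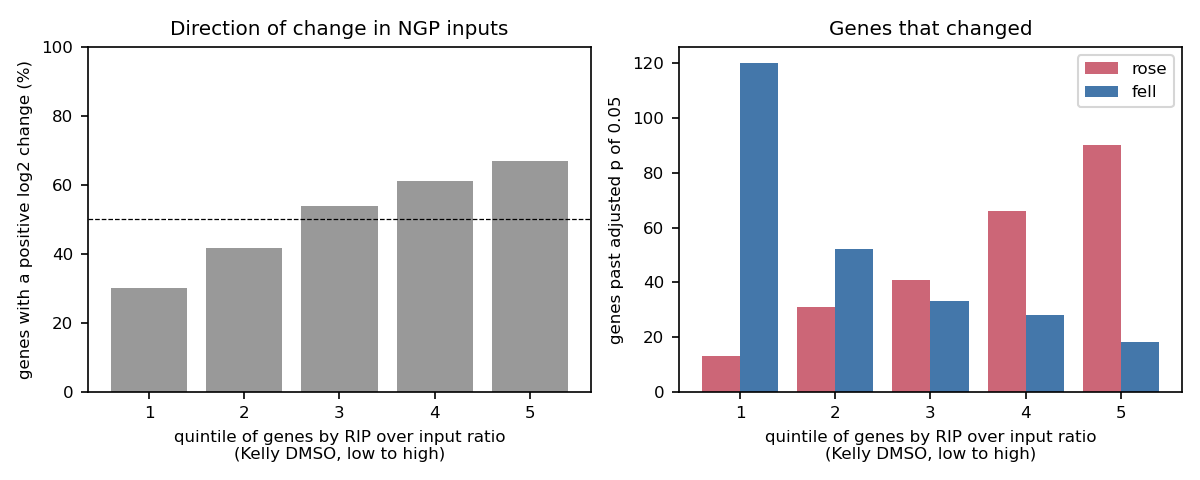
Called rises and called falls in the NGP inputs, and percent of genes higher in STM2457, in quintiles of genes ordered by their RIP over input ratio in the Kelly DMSO libraries (2335 or 2336 genes a quintile, dashed line at 50%). Rises go from 13 in the lowest quintile to 90 in the highest, and falls from 120 to 18; without STM2457 replicate 1 they go from 4 to 24 and from 10 to 11.

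Taken by call, the 241 called rises with a ratio had a median log2 RIP over input of 1.25, and 54.8% of them were enriched at least 2-fold. For the 251 called falls the median was -2.37 and 12.4% were enriched at least 2-fold, and for all genes tested these were -0.24 and 31%. With the ribosomal protein and respiratory chain genes left out, the called falls had a median of -2.02. The median exonic length was 5442 bases for called rises, 4050 for called falls and 5304 for all genes. Genes of a single exon made up 5.51%, 2.63% and 2.7%. In the longest GENCODE 44 transcript of each gene (252, 262 and 12058 genes matched), GGACT occurred a median 0.987 times per kilobase in called rises, 0.889 in called falls and 0.923 in all genes, and the median GC content was 55.7%, 47.5% and 49.1%.

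The NGP RIP libraries, made from RNA of cells with the same treatment, gave the same sign for most called genes. Of 253 called rises tested there, 243 were higher in STM2457, with a median of 0.66. Of 260 called falls, 238 were lower, with a median of -0.52. Over all 12114 genes tested in both, 5946 were higher and 6168 lower. The RIP fit alone called 174 of 12798 genes (1.36%), 83 up and 91 down. That count moved with each library: it was 957 without DMSO RIP replicate 1, 81 and 113 without DMSO RIP replicates 2 and 3, and 49, 92 and 42 without STM2457 RIP replicates 1, 2 and 3. Since inputs and RIP libraries of a group may come from the same RNA, this is a second reading of the libraries and not an independent one.

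Kelly cells at 6 days of the same dose were used to ask where the NGP response differs. The difference of the 2 responses was tested as an interaction over the 12 inputs, and 183 of 13448 genes were called (1.36%), 107 with the higher response in NGP and 76 with the lower. DESeq2 called 430. Leaving out any of the 6 Kelly libraries gave 94 to 111 calls, and leaving out NGP STM2457 replicate 2 gave 276. Of the 520 genes called in NGP, 78 had a called difference. The interaction fit takes 1 spread per gene over both lines. For TFAP2B the SE was 0.0604 in Kelly and 0.149 for the difference, which is under the SE of its NGP change given above. Putting both lines in 1 fit also raised the calls in NGP itself from 520 to 1586. The adjusted p of a difference thus does not rest on the NGP spread alone and may be too small. Kelly libraries stand in another processing folder, so the line and any processing batch cannot be told apart. In Kelly at 6 days 3396 of 12773 genes were called (26.6%). Of the genes called in both lines 299 changed in the same direction and 18 in opposite directions. All 18 had a called difference, which follows largely from their choice by calls of opposite sign in the same libraries.

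The opposite group held CRH and ADM, described above as rises in NGP. In the fit of both lines CRH had 15.3, 15.6 and 10.9 CPM in Kelly DMSO and 3.71, 4.31 and 4.4 CPM in Kelly STM2457, against 0, 0.357 and 1.16 CPM and 9.4, 7.96 and 6.54 CPM in NGP. It was thus lower in treated Kelly and higher in treated NGP libraries, and the fitted difference of the log2 changes was 5.71 (edgeR adjusted p = 0.000246). It was 4.98 without NGP DMSO replicate 1 and 7.73 without NGP DMSO replicate 3. ADM fell by 2.97 on the log2 scale in Kelly, a fitted difference of 6.48 (edgeR adjusted p = 0.000849). It was 5.87 without Kelly DMSO replicate 1, 7.30 without Kelly STM2457 replicate 1 and 5.70 without Kelly STM2457 replicate 2. CRABP2 fell by 1.59 in Kelly and JDP2 by 1.15, with differences of 2.46 (edgeR adjusted p = 0.000109) and 2.32 (edgeR adjusted p = 0.000117). TFAP2B had a Kelly change of -0.23 and a difference of 1.06 (edgeR adjusted p = 0.000775).

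Other genes of the 18 fell in NGP and rose in Kelly. IGFBP5, another insulin-like growth factor binding protein, had 218, 252 and 234 CPM in NGP DMSO and 142, 153 and 111 CPM in NGP STM2457 (-0.79, edgeR adjusted p = 0.00341). Its Kelly change was 1.34, which makes a difference of -2.16 (edgeR adjusted p = 1.06e-06), while IGFBP3 rose in both lines. TRIM9, a ubiquitin ligase of neurons, had 106, 86.5 and 103 CPM against 40.1, 44 and 33.9 CPM (-1.33 ± 0.178, edgeR adjusted p = 4.71e-05), with 0.31 in Kelly and a difference of -1.66 (edgeR adjusted p = 0.000166). Neither had overlapping NGP groups. DLL3 had 0.30 in Kelly and a difference of -1.06 (edgeR adjusted p = 0.00352).

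CHRM3 and ITGB5 rose in NGP and fell in Kelly. CHRM3, a muscarinic receptor like CHRM1, had 6.91, 5.3 and 4 CPM in NGP DMSO and 11.2, 14 and 16.4 CPM in NGP STM2457 (1.35, edgeR adjusted p = 0.0394). Its Kelly change was -1.11 (adjusted p of the difference 0.0015, edgeR), and the NGP call held without DMSO replicate 2 but in no other leave-out (0.0475 to 0.186 over the 6). ITGB5, an integrin that binds vitronectin, had 19.1, 18 and 19.3 CPM against 35.5, 34.1 and 29 CPM (0.80, edgeR adjusted p = 0.0467), with -1.27 in Kelly and a difference of 2.05 (edgeR adjusted p = 2.81e-06). The NGP call of ITGB5 was lost in each of the 6 leave-outs (0.0582 to 0.213). The other genes of the 18 were RIMS3, TAGLN2, KIAA1614, SRGAP3, NDOR1, RFLNB, SMTNL2 and AATK. KIAA1614 and SRGAP3 kept their NGP call in all 6 leave-outs. AATK kept it in 4, RIMS3 in 3, SMTNL2 in 2, NDOR1 and RFLNB in 1 and TAGLN2 in 0.

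**Figure D5:**
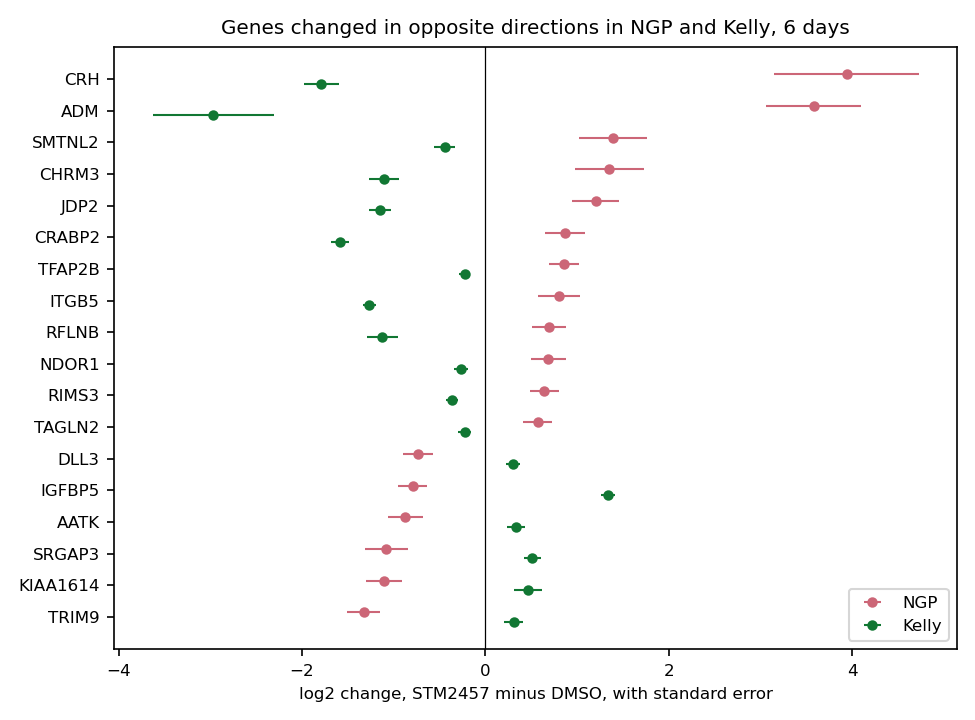
Log2 change in NGP and in Kelly at 6 days of the 18 genes called in both lines with opposite signs, each with its standard error. CRH (3.94 in NGP, -1.79 in Kelly) and ADM (3.58 and -2.97) lie furthest from the zero line in both.

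Several of the largest NGP changes were larger in NGP than in Kelly. VIM had a change of -0.09 in Kelly, with a difference of 2.28 (edgeR adjusted p = 4.83e-06). RAB26 had 0.05 in Kelly (difference -2.55, edgeR adjusted p = 0.00111), PLXNA3 0.09 (difference -1.43, edgeR adjusted p = 0.000377) and LAMA5 -0.12 (difference -1.64, edgeR adjusted p = 0.000288). MSX2 had -0.20 in Kelly and a difference of 3.32 (edgeR adjusted p = 0.00351), which rests on few fragments in NGP DMSO. FOXC1 and IGFBP3 rose in Kelly as well, by 1.55 and 1.42, and rose more in NGP by 2.09 (edgeR adjusted p = 0.00556) and 1.49 (edgeR adjusted p = 0.00317). NRP1 and SFRP1 had differences of 1.66 (edgeR adjusted p = 0.000434) and 1.01 (edgeR adjusted p = 0.00317). STC2 fell less in NGP, with -3.55 in Kelly and a difference of 1.98 (edgeR adjusted p = 0.000209). In the ATF4 and CHOP list, 9 members had a called difference. Of the members tested in NGP, 0 were called up and 20 down in Kelly, with a median of -1.11. In NGP 1 was called up and 1 down, with a median of -0.33.

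The 5 largest positive and 5 largest negative differences, by a rule on level over both lines, mostly concern genes that NGP hardly expresses. SLC7A11, the cystine transporter, had 12.8, 10.5 and 8.9 CPM in Kelly DMSO and 1.62, 1.15 and 2.64 CPM in Kelly STM2457, against 1.02, 0.357 and 0.485 CPM and 2.61, 2.71 and 2.27 CPM in NGP. It fell in Kelly (-2.79, edgeR adjusted p = 1.83e-06), and its higher NGP level under STM2457 did not pass the test (1.95, edgeR adjusted p = 0.253). The fitted difference was 4.58 (edgeR adjusted p = 0.000723), and 5.18 without NGP DMSO replicate 1. RHBG, an ammonium transporter, had 1, 0 and 0 fragments in the NGP DMSO libraries and 87, 20 and 61 in NGP STM2457. In Kelly it had 4.17, 3.41 and 4.45 CPM and 11.8, 13.6 and 13.5 CPM (adjusted p of the difference 0.00274, edgeR). F12, a coagulation factor that shares 399 exonic bases with GRK6, had 4.92, 4.28 and 4.65 CPM in NGP DMSO and 0.632, 0.677 and 0.698 CPM in NGP STM2457, against 31.5, 36.2 and 32.5 CPM and 25.9, 30 and 31.7 CPM in Kelly (adjusted p of the difference 0.000288, edgeR).

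For SLC7A11, RHBG, F12 and the genes that follow, a fitted difference rests on few NGP fragments and is no measure of size. KCNIP4, a potassium channel partner, had 0.0848, 0 and 0 CPM in NGP DMSO and 2.29, 0.339 and 1.92 CPM in NGP STM2457 (adjusted p of the difference 0.0193, edgeR), and lost that call without Kelly DMSO replicate 2 (0.061), Kelly STM2457 replicate 2 (0.0644) or NGP DMSO replicate 3 (0.0721). PLIN2, of lipid droplets, had no fragment in NGP DMSO and at most 0.611 CPM in NGP STM2457 (adjusted p 0.0275, edgeR), and lost its call in 9 of the 12 leave-outs (highest adjusted p 0.078). ANXA2, annexin A2, had 2.29, 1.07 and 1.74 CPM in NGP DMSO and 0, 0 and 1 fragments in NGP STM2457, a call that was lost without NGP STM2457 replicate 1 (adjusted p = 0.057). MYO7A, an unconventional myosin, had 2.88, 1.07 and 2.52 CPM in NGP DMSO and 0, 0 and 2 fragments in NGP STM2457. UNC93B1, which carries Toll-like receptors to endosomes, had 2.04, 0.535 and 1.07 CPM and no fragment. ANXA2 and UNC93B1 fell in Kelly too. ANXA2 had 27.9 to 30.9 CPM in Kelly DMSO and 10.9 to 12.9 CPM in Kelly STM2457 (-1.30, edgeR adjusted p = 6.92e-07). UNC93B1 had 24 to 26.6 CPM and 13.8 to 18.5 CPM (-0.67, edgeR adjusted p = 0.000856). MYO7A had 26.4 to 35.2 CPM and 19.5 to 28.9 CPM there and was not called (edgeR adjusted p = 0.0821).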

How the data were processed

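The authors deposited 1 table of raw fragment counts per library. Per the file headers, featureCounts (Subread 1.5.3) counted paired fragments over exons by gene name with a protein-coding GENCODE 33 annotation, unstranded and without the option that counts a fragment for several genes. Shared exons therefore got no fragments, and antisense genes could not be told apart. The submitters' processing notes also name FastQC 0.11.5, Trimmomatic 0.36, HISAT2 2.1.0 and GRCh38. Per the labels' protocols, poly(A) RNA was sonicated and spike-ins were added, which are not analysed here. The totals of 5.49 to 11.6 M set the counting precision.

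Counts were tested with edgeR 4.0.16 (R 4.3.3; TMM, filterByExpr with minimum count 10 and minimum total 15, quasi-likelihood F-test, two-sided, Benjamini-Hochberg adjustment over all genes tested, threshold 0.05). The 6 NGP inputs were fitted alone, the difference between NGP and Kelly as an interaction over 12 inputs, and the 6 NGP RIP libraries alone. Standard errors come from the log2 change and the F value. Alternatives were RLE factors, no filter, DESeq2 1.42.0, limma 3.58.1 with quality weights, a robust fit, both lines in 1 fit, a replicate block and each library left out. The scripts were tested on simulated data. Named genes are METTL3 and MYCN, the 12 largest called rises and falls of at least 2 log2 CPM with separate groups, up to 4 called members per list and direction, the 5 largest differences each way and the markers. Of these, 3 are not reported here. The 18 genes of opposite sign, from which further ones are named, MDM2 and RPL35A were singled out after their values were seen. The groups, lists and rules were chosen with earlier results of these data known, and the ribosomal protein, respiratory chain, short-gene and histone lists were added after seeing the data. Same-numbered libraries did not deviate together (correlations of 0.016, 0.07 and -0.0015), so the numbers were not treated as pairs. A replicate block nevertheless raised the NGP calls from 520 to 870, so the choice affects the count. Replicates of a group differed beyond sampling noise (chi-square per degree of freedom 10.7 to 29.6).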

Additional observations from a re-analysis of the deposited data

Results flagged for a closer look

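The log2 change under STM2457 differed between NGP and Kelly for 183 genes in edgeR's interaction test, which takes 1 spread per gene over both lines. The values below are NGP minus Kelly on the log2 scale, for the genes named above. The response was higher in NGP for CRABP2 by 2.46, CHRM3 by 2.42, JDP2 by 2.32, VIM by 2.28, FOXC1 by 2.09, ITGB5 by 2.05, STC2 by 1.98, NRP1 by 1.66, IGFBP3 by 1.49, TFAP2B by 1.06 and SFRP1 by 1.01. It was lower in NGP for RAB26 (-2.55), IGFBP5 (-2.16), TRIM9 (-1.66), LAMA5 (-1.64), PLXNA3 (-1.43) and DLL3 (-1.06). CRH (5.71), ADM (6.48), MSX2 (3.32), SLC7A11 (4.58), PLIN2 (5.49), RHBG (5.17), KCNIP4 (5.12), F12 (-2.58), ANXA2 (-4.09), MYO7A (-4.60) and UNC93B1 (-6.48) have fitted differences that rest on few or no fragments in 1 of the NGP groups, and are no measure of size.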

How the results depend on the processing

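The 520 genes called in NGP became 870 with a replicate block, 1586 with NGP and Kelly in 1 fit and 1030 with limma's quality weights, and ran from 128 to 459 over the leave-outs. RLE factors gave 510, the robust fit 530, no filter 738 and DESeq2 749. Without both replicates numbered 2, an alternative chosen after seeing the data, there were 558. The 183 called differences became 430 with DESeq2 and 132 with a replicate block, and ran from 94 to 276 over the leave-outs. PLIN2 lost its called difference with the replicate block (5.50, edgeR adjusted p = 0.0606). The 174 RIP calls became 364 with no filter and ran from 42 to 957 over the leave-outs. The log2 change of METTL3, not called, ran from -0.056 without STM2457 replicate 3 to 0.26 without STM2457 replicate 2. Of the settings run on single genes in NGP, 1121 kept direction and call, 166 lost the call and 1 reversed. For the differences 434 kept both and 14 lost the call. Of list medians 341 moved by less than the spread and 43 by more. The cause of these moves was not tested. With 3 libraries a group, and 5.49 M fragments in the shallowest, genes of a few CPM are limited by counting, and a gene that is not called may still have changed.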

Other observations

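The replication-dependent histone genes, added as a list after seeing the data, had 0 called rises and 4 called falls among 55 tested, with a median log2 change of -0.40 against 0.01 over all genes tested. Of the 6 leave-outs, H2AC20 kept its call in 4, H2AC12 in 3, and H2BC9 and H2BC4 in 1 each. Histone genes took 0.0719% to 0.0941% of the fragments in DMSO and 0.0627% to 0.0885% in STM2457, so their share overlapped between the groups. Most histone mRNAs end in a stem-loop without a poly(A) tail, so in poly(A) RNA their level also depends on how many are polyadenylated. Genes with exons of under 1000 bases in all, added in the same way, had 1 rise and 11 falls among 143 tested, with a median of -0.18, and took 1.82% to 2.65% of the fragments of a library. RAPGEF4 had 39.4 CPM in DMSO replicate 2 and 0.987 and 1.03 CPM in DMSO replicates 1 and 3. The quality weight of that library in limma was the lowest of the 6, at 0.654.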
